A study of Mus musculus with 12 samples.

Results

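The 8 genes described here, Krt7, Krt19, Epcam, Prom1, Sox9, Sox4, Spp1 and Cftr, are markers of bile duct epithelium and of the ductular reaction. They were taken by symbol from the 24411 genes of the count table, and all 8 had a row there. Poly(A) RNA of whole livers was sequenced from mice of a C57BL/6 background at 3 months of age, with 3 mice in each genotype. All mice carried floxed Atg7 (Atg7flox/flox), the gene of an enzyme needed to form autophagosomes. The cont mice carried nothing else. The Atg7-KO mice also carried Alb-Cre, in which the albumin promoter drives the recombinase in hepatocytes. The Atg7-KO;p62T352A mice carried Alb-Cre and, on both alleles, a knock-in that replaces threonine with alanine in p62, the autophagy receptor encoded by Sqstm1 that binds KEAP1. The comparisons ask what loss of Atg7 did to the liver transcriptome and what the substitution in p62 changed in that state. Mice with the substitution and intact Atg7 were not analysed here.

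Cholangiocytes, the epithelial cells that line bile ducts, modify bile by secreting chloride, bicarbonate and water. In chronic liver injury, small biliary cells multiply around the portal tracts, and hepatocytes can take on biliary genes. Both processes belong to what pathologists call a ductular reaction, which often comes with inflammation and scarring. The markers fall into roles. Krt7 and Krt19 encode keratins of the biliary cytoskeleton, Epcam a cell adhesion protein, and Prom1 the apical membrane glycoprotein CD133. Sox9 and Sox4 encode transcription factors that guide bile duct formation, Spp1 encodes the secreted matrix protein osteopontin, and Cftr encodes the apical chloride channel of cholangiocytes. In bulk liver RNA, more cells of a type and more RNA per cell cannot be told apart.

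The promoters of members that moved differently are shown first, as RefSeq gives them on GRCm38.p6, from 250 bases before to 50 bases after the annotated start. RefSeq promoters were matched for 6 of the 8 members. Epcam (chr17:87635729-87636028, plus strand), Spp1 (chr5:104434861-104435160, plus strand) and Cftr (chr6:18170437-18170736, plus strand) were lower in Atg7-KO;p62T352A than in Atg7-KO. Sox4 (chr13:28953650-28953949, minus strand) did not pass the test in that comparison. Each is written 5′ to 3′ on the strand of the gene, and capitals mark matches to 1 of the 6 motifs searched.
Epcam promoter: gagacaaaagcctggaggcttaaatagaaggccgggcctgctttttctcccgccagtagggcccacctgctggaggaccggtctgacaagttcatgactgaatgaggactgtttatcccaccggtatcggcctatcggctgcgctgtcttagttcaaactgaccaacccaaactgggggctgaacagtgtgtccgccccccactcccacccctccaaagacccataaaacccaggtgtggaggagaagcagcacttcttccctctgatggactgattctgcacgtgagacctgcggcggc
Spp1 promoter: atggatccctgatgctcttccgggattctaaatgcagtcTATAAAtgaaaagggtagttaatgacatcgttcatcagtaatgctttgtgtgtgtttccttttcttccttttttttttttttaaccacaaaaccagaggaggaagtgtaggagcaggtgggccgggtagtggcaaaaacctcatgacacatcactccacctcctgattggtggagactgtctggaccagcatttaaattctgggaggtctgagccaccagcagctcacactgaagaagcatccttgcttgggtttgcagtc
Cftr promoter: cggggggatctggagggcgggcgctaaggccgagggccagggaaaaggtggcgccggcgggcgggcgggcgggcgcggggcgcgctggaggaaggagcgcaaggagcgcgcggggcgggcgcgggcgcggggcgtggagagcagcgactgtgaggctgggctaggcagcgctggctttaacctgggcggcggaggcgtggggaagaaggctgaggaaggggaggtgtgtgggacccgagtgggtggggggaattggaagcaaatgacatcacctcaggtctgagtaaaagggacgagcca
Sox4 promoter: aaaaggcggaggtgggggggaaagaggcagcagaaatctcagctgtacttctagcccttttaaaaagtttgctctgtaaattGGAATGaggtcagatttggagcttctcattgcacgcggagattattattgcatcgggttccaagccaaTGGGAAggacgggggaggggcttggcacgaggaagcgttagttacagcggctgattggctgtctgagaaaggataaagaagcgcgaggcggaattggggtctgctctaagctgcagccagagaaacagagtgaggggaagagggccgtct

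The motifs were searched on both strands, and no match in these windows overlapped another. The Sox4 window held GGAATG, the core bound by TEAD factors, and TGGGAA, the core bound by RBPJ, the DNA-binding partner of Notch. Over all 27025 promoter windows of this length, GGAATG was present in 14.7% and TGGGAA in 25.5%. The Spp1 window held TATAAA, the letters of a TATA box, 211 bases before the start, and 14.2% of all windows held it. The Prom1 window held the AP-1 motif TGANTCA, present in 7.92% of all windows, and the RBPJ core. No window of Krt7, Epcam or Cftr held any of the 6, which also included the SOX core ACAATG (12.8% of all windows) and the antioxidant response element core TGACNNNGC (12.4%). None of the 6 matched windows held the SOX core or the antioxidant response element core.

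By GENCODE annotation of GRCm38, the build named by the authors as mm10, Krt7 spans chr15:101411043-101430313 and Krt19 spans chr11:100140810-100148665. Epcam spans chr17:87635979-87651129, Prom1 chr5:43993620-44102032 and Cftr chr6:18170687-18322768. Sox9 spans chr11:112782224-112787760, Sox4 chr13:28948919-28953713 and Spp1 chr5:104435118-104441050. All 8 are protein-coding, and Sox4 has 1 exon. The antisense transcript Gm26735 covers 54.6% of the exon bases of Sox4, so reads of the pair cannot be told apart without strand, and the strand setting of the counting is not given in the sources used here. Gm42793, on the same strand, covers 18.8% of the exon bases of Spp1. For the other members such overlap was at most 5.9%, in Prom1.

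The 9 libraries held between 9671080 and 23285132 counts. Levels are given as normalized CPM, the usual count scaled to library size, here with the TMM factors of edgeR. Atg7 had 44.1 to 55.4 CPM in the cont mice, and the Atg7-KO mice had 9.57 to 12.0. The Atg7-KO;p62T352A mice had 27.4 to 29.7, below every cont mouse (log2 fold change −0.75, FDR = 0.0206) and above every Atg7-KO mouse (log2 fold change 1.45, FDR = 1.64e-04). How completely the gene was lost in those livers was not tested with these counts, which cover the whole gene, the part outside the deletion included. The genotypes with Alb-Cre thus differed in Atg7 RNA as well as in p62, and these differences cannot be told apart here. By immunoblot, the study reports ATG7 protein as almost absent from Atg7-KO livers, with the p62 substitution or without it. Xist, the RNA of the inactive X chromosome, was counted 7 to 28 times in each mouse 1 and at least 8578 times in each mouse 2 and 3, so each genotype mixed both patterns. The 20 genes with the most counts took 31.2% of the cont 1 library, against 16.4% to 26.4% in the others. A gene was called at a false discovery rate (FDR) under 0.05 and a fold change over 1.5 in the edgeR quasi-likelihood test over 13922 genes.

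Of the 8 markers, 7 were higher in Atg7-KO livers than in cont livers: Krt19, Epcam, Prom1, Sox9, Sox4, Spp1 and Cftr. Their group means differed between 5.11-fold, for Krt19, and 25.8-fold, for Spp1, and more for Cftr, which was nearly absent from cont. Krt7 did not pass the test. Of all genes tested, 21.6% were called higher and 22.1% lower in this comparison. In 7 of the 8 every Atg7-KO mouse was above every cont mouse, and 29.2% of all genes were separated this way. The median log2 fold change was 3.34 over the 8 members and −0.03 over all genes. Setting Cftr to its lower counting limit could not move the first, since Cftr stayed above the middle genes.

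Among the keratins and surface proteins, Epcam had the smallest standard error of its fold change. In cont it was at 1.26, 1.04 and 0.769 CPM in mice 1 to 3, and in Atg7-KO at 15.5, 19.7 and 16.9. Its log2 fold change was 4.04 (SE 0.26, FDR = 1.37e-05), and the lowest Atg7-KO mouse lay far above the highest cont mouse. Krt19 was at 1.03, 0.945 and 2.31 CPM in cont and at 7.59, 7.84 and 6.44 in Atg7-KO. The mice did not overlap, and the log2 fold change was 2.39 (SE 0.35, FDR = 6.60e-04). Krt7, the partner keratin in biliary epithelium, was at 0.573, 0.851 and 2.53 CPM in cont and at 2.85, 2.71 and 1.88 in Atg7-KO. The cont 3 mouse was above the lowest Atg7-KO mouse, and the log2 fold change of 0.98 had a 95% interval from −0.19 to 2.16 (FDR = 0.1498). Without cont 3 it was 1.82 and passed the test (FDR = 0.0134), so this 1 mouse decided the call. Prom1 was at 1.09, 1.32 and 8.90 CPM in cont and at 29.0, 69.1 and 51.4 in Atg7-KO. The genotypes did not overlap, but Prom1 varied more within a genotype than the others and was lowest in the mouse numbered 1 of each. Its log2 fold change was 3.79 (SE 1.02, FDR = 0.0131), with a 95% interval from 1.52 to 6.07, and was 5.37 without cont 3.

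Both transcription factors were higher in Atg7-KO, with closely spaced values among those mice. Sox9 was at 5.27, 6.14 and 3.19 CPM in cont and at 25.5, 25.6 and 26.1 in Atg7-KO, a log2 fold change of 2.39 (SE 0.27, FDR = 1.70e-04). Sox4 was at 1.26, 3.69 and 4.06 CPM in cont and at 21.9, 20.9 and 21.4 in Atg7-KO, a log2 fold change of 2.88 (SE 0.50, FDR = 0.00161). For each factor the lowest Atg7-KO mouse was above every cont mouse.

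Osteopontin RNA was the most abundant member by length in every genotype. Spp1 was at 43.0, 24.4 and 33.8 CPM in cont and at 966, 873 and 771 in Atg7-KO. That is a log2 fold change of 4.69 (SE 0.31, FDR = 1.40e-05). Osteopontin is also made by macrophages and injured hepatocytes, so Spp1 marks ducts less strictly than the keratins do. Cftr had 2 counts in cont 1 and none in cont 2 or 3, against 88, 120 and 69 counts in Atg7-KO. The summed counts gave a ratio of 75.1, with a counting interval from 20.6 to 623 (95%, exact, counting error only). The test passed with FDR = 2.01e-04. The fitted log2 fold change of 6.08 depends on how the near-empty cont libraries are treated.

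**Figure D1:**
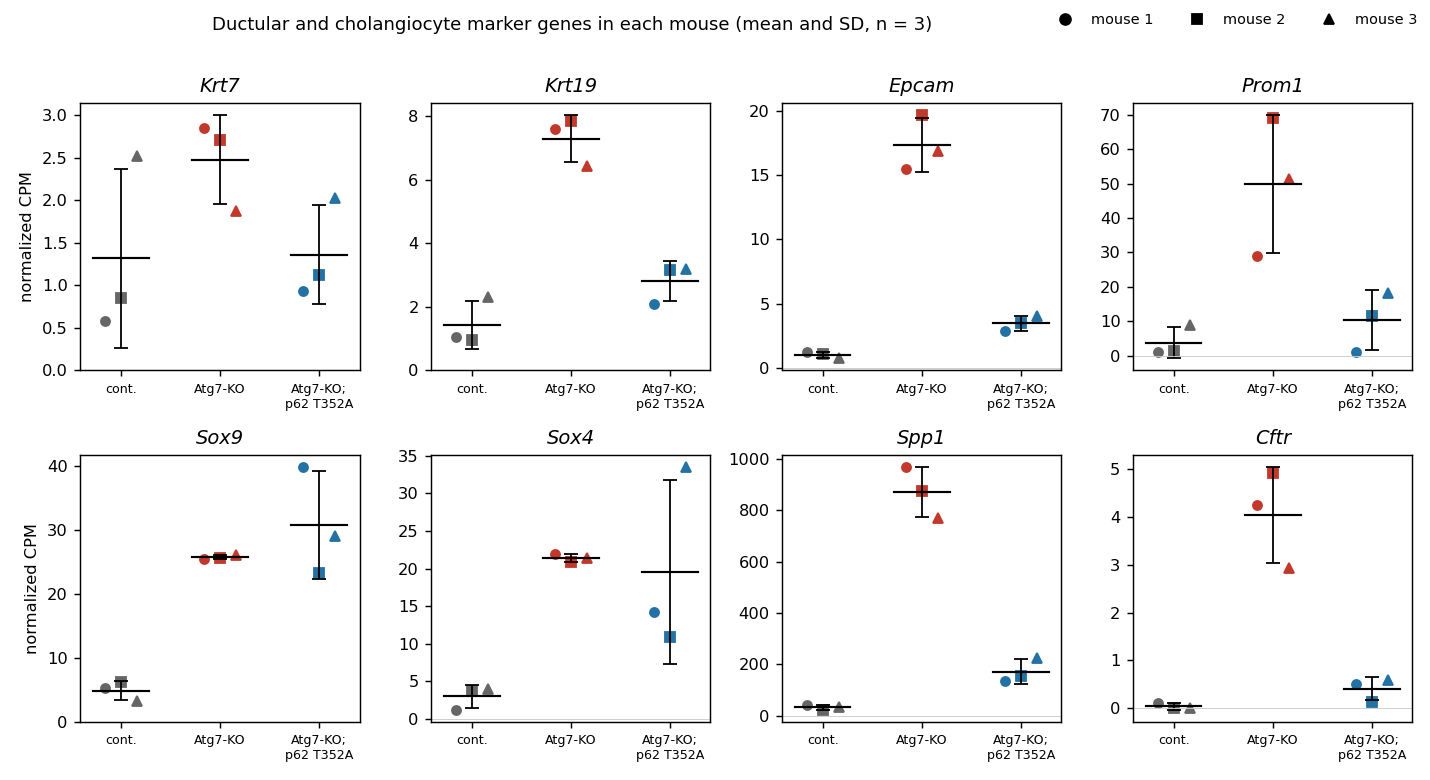
Normalized CPM (y axis, from 0, linear, its own scale in each panel) of the 8 markers in cont (grey), Atg7-KO (red) and Atg7-KO;p62T352A (blue) livers. Each symbol is a mouse (circle 1, square 2, triangle 3), the horizontal line is the mean and the bar is 1 SD (n = 3). Epcam, Spp1 and Cftr were highest in Atg7-KO, Sox9 and Sox4 stand high in both mutant genotypes, and the genotypes overlap for Krt7.

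The plot of levels by mouse shows that the members did not share 1 pattern across the 3 genotypes. Their order by level per kilobase of exon also differed. In cont, Spp1 was at 20.5 CPM per kilobase, Sox9 at 1.18 and Krt19 at 0.770, and Cftr was lowest at 0.00492. In Atg7-KO, Spp1 was at 528, followed by Epcam at 7.91 ± 0.96, Prom1 at 6.95 ± 2.80 and Sox9 at 6.22 ± 0.08 (SD, n = 3). The places of Epcam, Prom1 and Sox9 in that order lay within the spread of Prom1. In Atg7-KO;p62T352A, Sox9 at 7.44 ± 2.04 and Sox4 at 4.08 ± 2.55 CPM per kilobase came next after Spp1 at 104, and their ranges of 1 SD overlapped. Krt7 and Cftr took the lowest places in all 3 genotypes.

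With the substitution in p62, 4 markers were lower than in Atg7-KO: Krt19, Epcam, Spp1 and Cftr. The means of Epcam and Spp1 were at 0.200 and 0.197 of their Atg7-KO level. Sox9 and Sox4 did not pass the test. None of the 8 was called higher. Over all genes, 26.2% were called lower and 24.7% higher in this comparison, and the median log2 fold change was −1.82 over the 8 members against 0.00 over all genes.

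Epcam was at 2.85, 3.50 and 4.04 CPM in the 3 Atg7-KO;p62T352A mice, each far below the 15.5 of the lowest Atg7-KO mouse. The log2 fold change from Atg7-KO was −2.32 (SE 0.23, FDR = 8.37e-05). Krt19 was at 2.07, 3.15 and 3.20 CPM, and its log2 fold change was −1.37 (SE 0.32, FDR = 0.00607). Both genes were lower in every mouse with the substitution. Krt7 was at 0.928, 1.12 and 2.02 CPM, overlapping with Atg7-KO, and its log2 fold change of −0.86 did not pass the test (FDR = 0.176). Prom1 was at 0.928, 11.6 and 18.3 CPM, all below the lowest Atg7-KO mouse, with mouse 1 again the lowest. Its log2 fold change was −2.27 (SE 0.92, 95% interval from −4.33 to −0.21) and narrowly missed the threshold (FDR = 0.0608). The call was gained without cont 1 (FDR = 0.0259) or without cont 3 (FDR = 0.0288), mice outside this pair of genotypes that enter the shared estimate of the spread.

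Spp1 was at 134, 154 and 227 CPM in Atg7-KO;p62T352A, against at least 771 in Atg7-KO. The log2 fold change was −2.34 (SE 0.28, FDR = 1.98e-04), and the genotypes did not overlap. Cftr had 7, 2 and 9 counts, or 0.500, 0.140 and 0.587 CPM, against 2.94 CPM in the lowest Atg7-KO mouse. Its log2 fold change was −3.27 (SE 0.51, FDR = 7.26e-04).

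The transcription factors showed no such difference beyond the spread of the mice. Sox9 was at 39.9, 23.3 and 29.0 CPM, on either side of the Atg7-KO mice. Its log2 fold change of 0.26 had a 95% interval from −0.30 to 0.82 (FDR = 0.406), which leaves out a fall as large as that of Krt19. By library total, without the TMM factors, mean Sox9 was instead lower with the substitution, at 26.9 CPM against 33.6 in Atg7-KO. Sox4 was at 14.2, 10.9 and 33.5 CPM, with mice 1 and 2 below and mouse 3 above every Atg7-KO mouse. Its log2 fold change of −0.13 had a wider 95% interval, from −1.12 to 0.86 (FDR = 0.823). The sign for Sox4 turned without Atg7-KO;p62T352A mouse 1 (0.06) or mouse 2 (0.16), and the value was −0.76 without mouse 3. In 5 of the 8 genes no mouse with the substitution overlapped the Atg7-KO mice, each time below them, which held for 36.8% of all genes tested.

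Compared with cont, 4 markers were higher in Atg7-KO;p62T352A: Epcam, Sox9, Sox4 and Spp1. Over all genes, 6.25% were called higher and 5.34% lower. The median log2 fold change was 2.03 over the 8 members, or 1.62 with Cftr at its counting limit, and 0.00 over all genes. This comparison shares mice with both others, so the 3 sets of values are not independent of each other.

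Sox9 had a log2 fold change from cont of 2.65 (SE 0.27, FDR = 0.00322) in Atg7-KO;p62T352A, beside 2.39 in Atg7-KO. Sox4 had one of 2.75 (SE 0.50, FDR = 0.0115), beside 2.88 in Atg7-KO. Spp1 had one of 2.35 (SE 0.28, FDR = 0.00400), beside 4.69. Epcam had one of 1.72 (SE 0.26, FDR = 0.00725), beside 4.04. For these 4 genes every Atg7-KO;p62T352A mouse was above every cont mouse, and 15.5% of all genes tested were separated in this direction. Cftr was separated too, with 18 summed counts against 2 (ratio 7.66, counting interval from 1.83 to 68.1), but did not pass the test (FDR = 0.0724). Without cont 1, the only cont mouse with Cftr counts, it passed (FDR = 0.0388).

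Krt19, Prom1 and Krt7 did not pass the test against cont. The log2 fold change of Krt19 was 1.02, with a 95% interval from 0.21 to 1.82 (FDR = 0.0980), and it was 1.49 and passed without cont 3 (FDR = 0.0209). That of Prom1 was 1.52, with an interval from −0.65 to 3.70 (FDR = 0.341). That of Krt7 was 0.12, with an interval from −1.10 to 1.35 (FDR = 0.911), and its sign was not stable when single mice were left out. When only the mice of these 2 genotypes were fitted, Epcam (FDR = 0.0748) and Sox4 (FDR = 0.0702) no longer passed, and the number of calls over all genes fell from 1613 to 50.

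**Figure D2:**
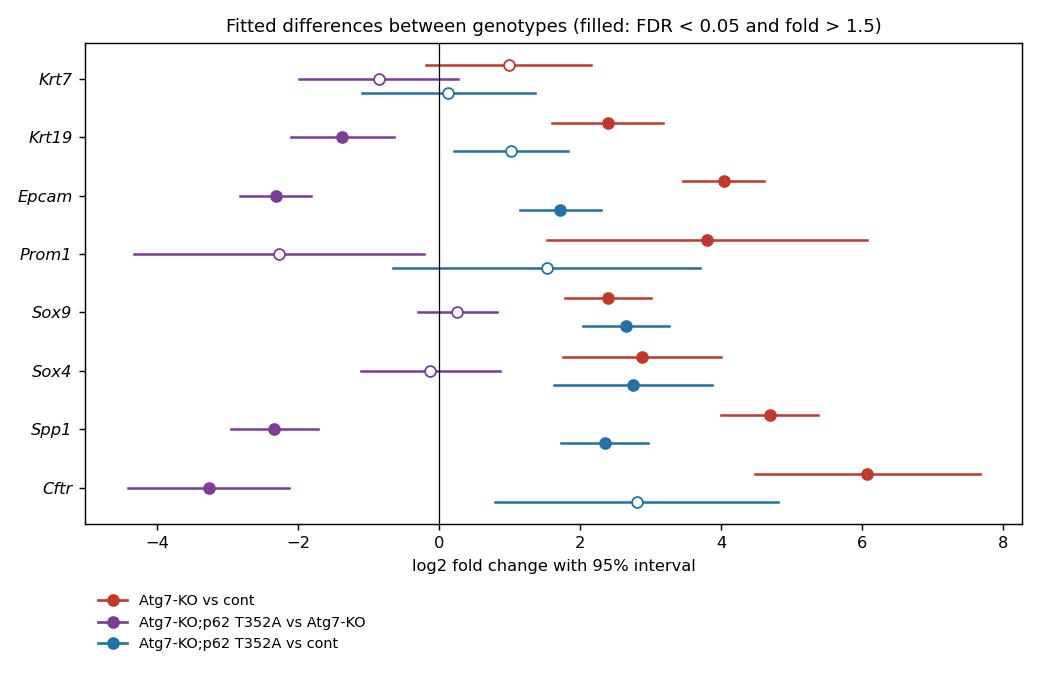
Fitted log2 fold change (x axis) of each marker in the 3 comparisons, with lines for the 95% interval. Filled points passed FDR under 0.05 and a fold change over 1.5. Sox9 and Sox4 lie near 0 between the mutant genotypes (0.26 and −0.13), where Epcam, Spp1 and Cftr lie at −2.32, −2.34 and −3.27.

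Other genes were examined in 4 lists, of biliary identity, bile secretion, inducers of ductular cells and osteopontin receptors. The lists were chosen with earlier results of these data known, and not all their genes are particular to biliary cells. Which cells made these RNAs was not tested. The list of biliary identity and structure held 29 genes, of which 28 were tested. In Atg7-KO against cont 22 were higher, 3 were lower and 3 were not called, with a median log2 fold change of 2.57, or 2.42 with genes near 0 in a genotype at their counting limits. Mmp7, a matrix metalloproteinase of injured biliary epithelium, had 1 count in the cont livers and 1250 in the Atg7-KO livers, a ratio of 678 with a counting interval from 121 to 26790 (FDR = 2.73e-05). Cldn4, a tight junction protein, was at 0.108 ± 0.115 CPM in cont and 9.46 ± 2.17 in Atg7-KO (SD, n = 3), a log2 fold change of 6.10 (FDR = 6.78e-05). The genes that fell were Onecut2 and Onecut1, transcription factors of the liver and biliary lineages, and Pkd1, which encodes polycystin-1 of the primary cilium. Onecut2 was at 182 ± 93 CPM in cont, above the cont mean of each of the 8 members, and at 63.2 ± 4.6 in Atg7-KO, a log2 fold change of −1.53 (FDR = 0.00840).

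In Atg7-KO;p62T352A against Atg7-KO, 21 genes of that list were lower and 3 were higher, with a median log2 fold change of −1.73. Mmp7 was at 1.29 ± 0.69 CPM with the substitution and at 18.5 ± 5.1 without it (log2 fold change −3.83, FDR = 1.45e-04). Cldn4 was at 0.427 ± 0.260 CPM with the substitution (log2 fold change −4.43, FDR = 1.26e-04). The genes that rose were Onecut2, at 341 ± 53 CPM (log2 fold change 2.43, FDR = 7.50e-04), Onecut1 and the claudin gene Cldn3, and the last pair was named after the values were seen. Against cont, 8 genes were higher and 1, Pkd1, was lower (log2 fold change −1.35, FDR = 0.0466). Mmp7 was among the 8, with 57 counts against 1.

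Of 12 genes for bile secretion and transport by cholangiocytes, 11 were tested. In Atg7-KO 6 were higher than in cont and none was lower, with a median log2 fold change of 1.28. Ggt1, which encodes gamma-glutamyl transferase, had 1 count in cont and 706 in Atg7-KO, a ratio of 383 with a counting interval from 68.5 to 15140 (FDR = 6.03e-05). Slc5a1, the sodium-glucose cotransporter SGLT1, was at 0.852 ± 0.155 CPM in cont and 11.1 ± 1.7 in Atg7-KO (log2 fold change 3.66, FDR = 4.03e-05). With the substitution 6 were lower than in Atg7-KO and none was higher. Ggt1 then had 4 counts, and Slc5a1 was at 1.89 ± 0.60 CPM (log2 fold change −2.54, FDR = 1.41e-04). Against cont the 1 called gene was the water channel gene Aqp1, which was lower and was named after its values were seen (log2 fold change −1.82).

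Of 16 genes of Notch signalling and other inducers of ductular cells, 15 were tested. In Atg7-KO 6 were higher than in cont, where 21.6% of all genes were, and none was lower, with a median log2 fold change of 0.69. Tnfrsf12a, the receptor of the cytokine TWEAK, was at 3.61 ± 2.25 CPM in cont and 48.1 ± 5.5 in Atg7-KO (log2 fold change 3.69, FDR = 9.39e-05). Tgfb2, a ligand of the transforming growth factor beta family, was at 0.615 ± 0.354 and 7.27 ± 1.19 CPM (log2 fold change 3.58, FDR = 1.16e-04). With the substitution 8 were lower than in Atg7-KO, where 26.2% of all genes were, and none was higher. Tnfrsf12a was at 11.0 ± 0.2 CPM, below Atg7-KO (log2 fold change −2.13, FDR = 8.32e-04) and above cont (log2 fold change 1.56, FDR = 0.0246). Tgfb2 was at 0.410 ± 0.097 CPM, below Atg7-KO (log2 fold change −4.12, FDR = 7.61e-05). Against cont the 1 lower gene was Notch2, named after its values were seen (log2 fold change −1.26).

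All 9 receptor genes for osteopontin, the product of Spp1, were tested. In Atg7-KO 7 were higher than in cont and none was lower, with a median log2 fold change of 1.27. Itga8, an integrin subunit, was at 4.97 ± 1.67 CPM in cont and 27.1 ± 3.0 in Atg7-KO (log2 fold change 2.43, FDR = 2.26e-04). Cd44, a hyaluronan receptor that also binds osteopontin, was at 8.36 ± 0.66 and 44.4 ± 2.3 CPM (log2 fold change 2.40, FDR = 7.00e-05). With the substitution 6 were lower than in Atg7-KO, Itga8 at 5.81 ± 1.69 CPM and Cd44 at 9.58 ± 3.13. Against cont none was higher and Itga9, named after its values were seen, was lower (log2 fold change −1.26).

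**Figure D3:**
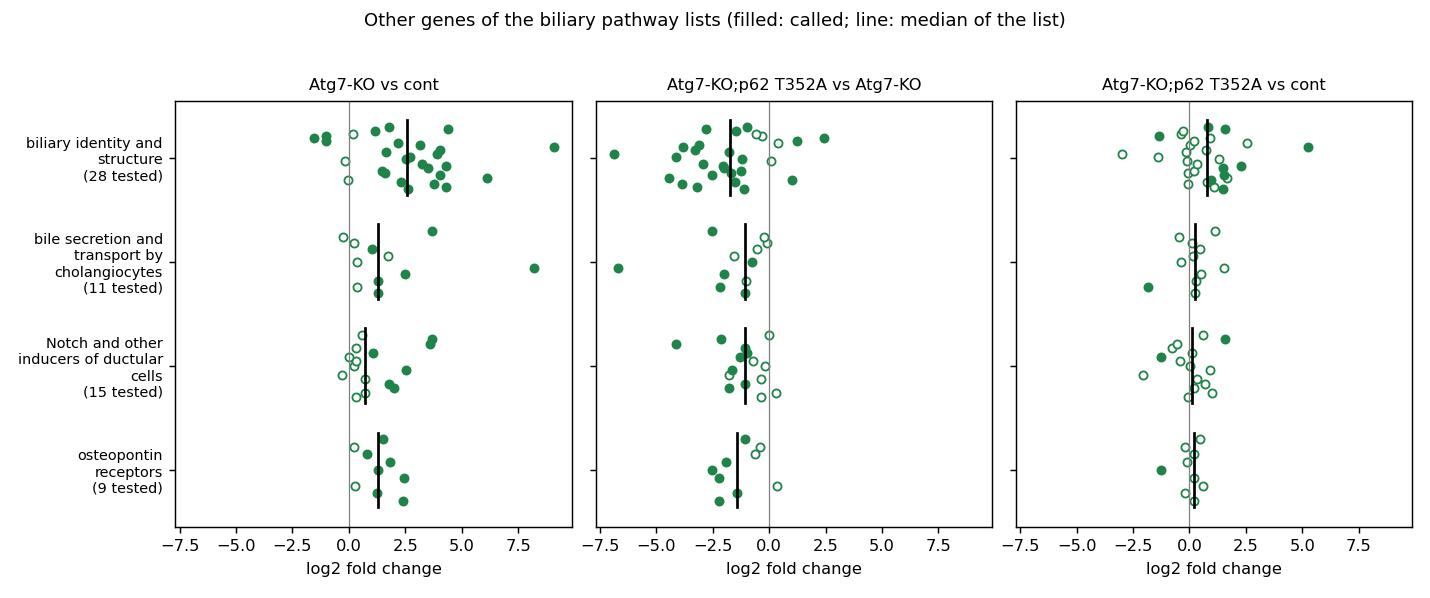
Log2 fold change (x axis) of the tested genes of the 4 lists of other genes in the 3 comparisons. Each point is a gene, filled where called, and the black line is the median of the list. In Atg7-KO against cont the medians lie between 0.69 and 2.57, and in Atg7-KO;p62T352A against Atg7-KO between −1.73 and −1.05.

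Markers of other liver cells also differed between the genotypes, in either direction, and their part in the results above was not tested. The shares over all genes given with the lists above stand beside these counts too. All 10 macrophage markers were higher in Atg7-KO than in cont, and all 10 were lower with the substitution than in Atg7-KO. Their summed level ran from 120 to 246 CPM in cont and from 1213 to 1286 CPM in Atg7-KO. With the substitution it ran from 115 to 210 CPM, which overlaps with cont, but Gpnmb (log2 fold change 3.98), Trem2 (3.47) and Lgals3 (1.90) were called higher than in cont there, as Spp1 was, and the other 7 were not called. Of 11 markers of stellate cells and fibroblasts, 9 were higher in Atg7-KO than in cont and 6 were lower with the substitution, with sums of 257 to 309, 872 to 1030 and 368 to 613 CPM. With the substitution, Col3a1 (log2 fold change 1.29) and Dcn (0.80) were still called higher than in cont. Of 8 hepatocyte markers, 6 were lower in Atg7-KO and 6 were higher with the substitution than in Atg7-KO. Their sum ran from 74305 to 130880 CPM in cont, from 38220 to 40913 CPM in Atg7-KO and from 111414 to 127014 CPM with the substitution. Every marker on these 3 lists was above 0 in the means of all genotypes, and Alb, which encodes albumin, was the highest of them.

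Of 8 markers of lymphocytes and other leukocytes, 4 were higher in Atg7-KO than in cont (Ptprc, Cd3e, Cd8a and Nkg7) and none was lower, with sums of 17.9 to 34.5, 65.0 to 73.5 and 23.8 to 30.3 CPM in the 3 genotypes. Of 5 Kupffer cell markers, Vsig4 and Cd5l were higher and Timd4 was lower, with sums of 220 to 265, 475 to 539 and 146 to 295 CPM. Of 6 markers of sinusoidal endothelium, Pecam1 and Lyve1 were higher and Stab2 was lower, with sums of 263 to 323, 249 to 260 and 136 to 167 CPM. With the substitution 4 of these 6 (Kdr, Pecam1, Lyve1 and Oit3) were lower than in Atg7-KO and 4 (Stab2, Kdr, Pecam1 and Oit3) were lower than in cont, with Kdr at 6.85 CPM against 42.0 in cont (log2 fold change −2.62). In the same comparison with Atg7-KO, the Kupffer cell markers Timd4 and Marco were higher and Vsig4 and Cd5l were lower, and the leukocyte markers Ptprc, Cd8a and Nkg7 were lower. Of 5 mesothelial markers tested, Lrrn4 and Gpm6a were higher in Atg7-KO and were lower with the substitution than in Atg7-KO, with sums over the list of 2.08 to 14.2, 8.36 to 11.2 and 2.03 to 4.56 CPM. Mesothelial cells also express keratins. The mesothelial sum was highest in cont 3, the cont mouse with the highest Krt7, Krt19, Prom1 and Sox4, and any link was not tested. Of 8 genes of the pancreatic acinus, 2 were tested and Amy2a5 was lower in Atg7-KO. The sums of 14.9 to 52.7, 12.5 to 15.1 and 21.1 to 31.4 CPM came mostly from Cela1, which was called higher with the substitution than in Atg7-KO (log2 fold change 1.07), while Prss2, Cela3b, Cpa1, Cpb1 and Pnlip were at 0 in all mice with the substitution. Against cont, the other calls on these lists with the substitution were Cd8a, which was higher, and Cps1, Upk3b, Lrrn4 and Amy2a5, which were lower. The genes named from the cell type lists were chosen after their values were seen.

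**Figure D4:**
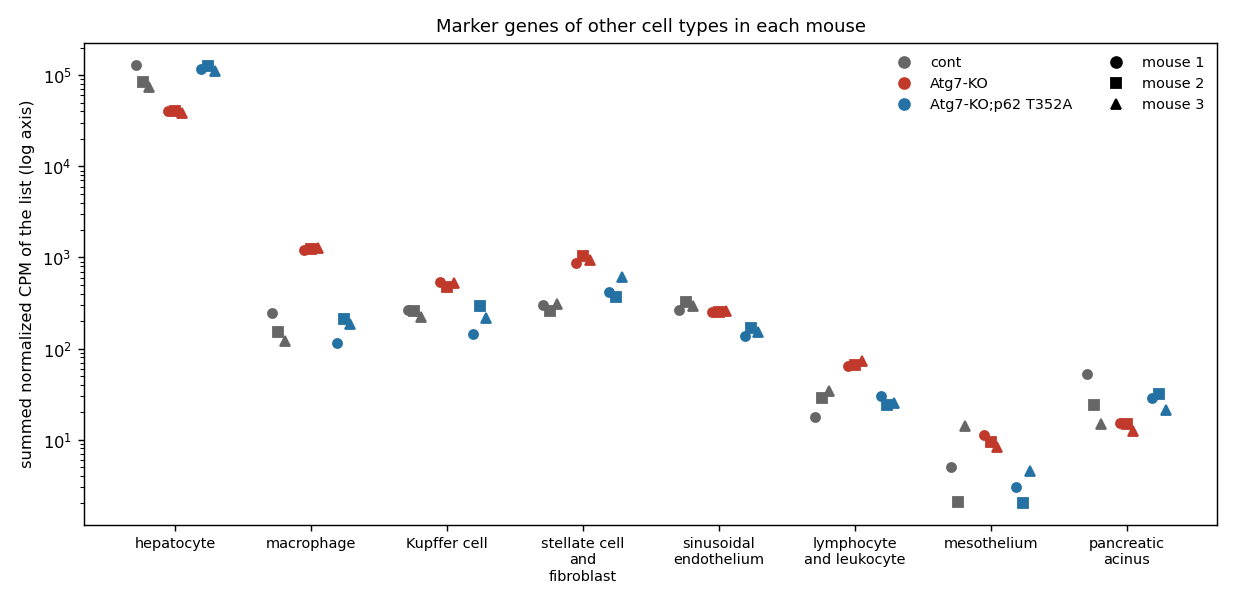
Summed normalized CPM (y axis, log scale) of marker lists of 8 other cell types in each mouse, with colors for genotype and symbols for mouse number. The macrophage sums of the 3 Atg7-KO mice lie at 1213 to 1286, above the 115 to 246 of all other mice, and their hepatocyte sums are the lowest.

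The genes whose levels across the 9 mice were most like the mean of the members by Pearson r, each scaled to its own mean and spread, were Anxa13, Fstl1, Gpx3, Spint1 and Col1a2, among 12812 genes with a mean of at least 1 CPM. The likeness of Anxa13, an annexin of epithelial cells, was a Pearson r of 0.996. Its mean CPM was 1.36 for cont, 8.15 for Atg7-KO and 3.76 for Atg7-KO;p62T352A. For Fstl1, a secreted glycoprotein, r was 0.992, and its levels were 7.84, 38.0 and 19.0 CPM. The levels were 5.50, 57.6 and 17.3 CPM for Gpx3, the plasma glutathione peroxidase, 0.549, 5.95 and 1.98 CPM for Spint1, an epithelial protease inhibitor, and 14.8, 142 and 49.8 CPM for Col1a2, a collagen chain. These are descriptions over mice that fall into 3 genotypes and share libraries, and 540 genes had an r over 0.9. Ranked by Spearman rho the first 5 were other genes, Fbln7, Ddr1, Cd63, Tmem159 and Dpt, so the choice of measure changed every name.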

How the data were processed

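Per the labels and the study's methods, the authors sequenced poly(A) RNA of livers and deposited RSEM expected counts per gene, with columns for 9 mice used here, made from 75-base reads mapped to mm10 with STAR after trimming with Trim Galore. Versions, annotation and strand setting are not given in the sources used here. The estimated counts were rounded to whole numbers. Columns were assigned by genotype and mouse number. For 3 labelled p62T352A mice no column was used, and they are not analysed here.

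Computations used R 4.3.3 (limma 3.58.1, edgeR 4.0.16, DESeq2 1.42.0) and Python 3.11.15 (matplotlib 3.10.9, numpy 2.4.6, pandas 2.3.3). Genes were retained with filterByExpr by genotype (13922), scaled by TMM and fitted in 1 quasi-likelihood model of 3 genotypes, with Benjamini-Hochberg adjustment over all genes. Standard errors came from the F statistic. The code was tested on simulated data. The members and lists were chosen with earlier results of these data known. Named genes were the members, the 2 largest called rises and 2 largest called falls of each list in Atg7-KO against cont with a mean of at least 1 CPM, and the 5 genes most like the members by Pearson r. Each mouse was taken as a separate animal. Library totals ran from 9671080 to 23285132. Counting intervals cover counting error only. Alternatives covered DESeq2, other scalings and filters, glmTreat, fits of fewer mice, a term for mouse number 1, a replicate block and leaving out each mouse.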

Additional observations from a re-analysis of the deposited data

How the results depend on the processing

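Over all alternatives to the log2 fold changes of the 8 genes, the direction and the side of the threshold stayed in 206 of the fits that left out 1 mouse and in 268 of the others. The direction turned in 5 and 2 of them, and these were all for Sox4 between the mutant genotypes and for Krt7 in Atg7-KO;p62T352A against cont, neither of which was called. With mice 2 and 3 only, these values were 0.0783 for Sox4 and −0.0653 for Krt7. Leaving out 1 mouse gave −0.76 to 0.16 for Sox4 and −0.29 to 0.96 for Krt7. Leaving out 1 mouse gave 7 to 8 called members in Atg7-KO against cont, 4 to 5 in Atg7-KO;p62T352A against Atg7-KO and 4 to 5 in Atg7-KO;p62T352A against cont.

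With at least 10 counts required in every mouse, 2 members were called between the mutant genotypes, since Krt7, Epcam and Cftr were then not in the fit. With only the 2 genotypes compared in the fit, 2 members were called in Atg7-KO;p62T352A against cont, and Cftr was not tested there. With only Atg7-KO;p62T352A and Atg7-KO in the fit, Krt7 passed between them (FDR = 0.04995).

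The labels do not describe the replicate number as a pairing. Deviations from the genotype mean correlated between −0.20 and 0.32 for same-numbered mice and between −0.34 and 0.18 for differently numbered ones. These ranges overlap and do not settle whether the numbers pair the mice. Each mouse 1 also shared low Xist counts. With the replicate block, 7, 5 and 4 members were called in the 3 comparisons, and Prom1 was gained between the mutant genotypes (log2 fold change −2.86, FDR = 0.00778). The block gave 5753, 6994 and 988 calls over all genes, against 6080, 7095 and 1613 without it. Prom1 was also gained there without a filter on low counts, with only these 2 genotypes, with mice 2 and 3 only and with a term for mouse number 1.

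The calls over all genes in Atg7-KO;p62T352A against cont were 2975 with mice 2 and 3 only, 253 with glmTreat and 435 to 3245 when 1 mouse was left out, lowest without Atg7-KO;p62T352A mouse 3 and highest without cont 1. With glmTreat the other comparisons gave 3855 and 4718. Upper-quartile scaling took the all-gene median log2 fold change from −0.03 to 0.08 in Atg7-KO against cont and from 0.00 to −0.14 between the mutant genotypes. The TMM factors were 1.28 to 1.32 in the Atg7-KO libraries and 0.75 to 0.95 in the others. CPM by library total leaves these factors out, which raised the mean Spp1 level in Atg7-KO from 870 to 1135. It also put mean Sox9 at 33.6 in Atg7-KO and 26.9 in Atg7-KO;p62T352A, and mean Sox4 at 27.9 and 17.7. The cause of the shifts in calls and medians, and of the difference in factors, was not tested. With 3 mice a genotype, low counts limit Cftr in cont and Krt7 throughout.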
